A study of Mus musculus with 4 samples.

Results

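The 9 genes described here encode proteins that carry or take up retinol, or that make, bind, sense or break down retinoic acid: Aldh1a1, Aldh1a3, Rbp4, Crabp1, Crabp2, Rarb, Rarg, Cyp26b1 and Stra6. They were found by gene symbol in the tables of read counts and of TPM (an expression level made from reads divided by gene length, with the same total in every library), among 55141 genes in the TPM table. The genes were chosen by name with the TPM ratios of these libraries already known, so levels and ratios of the members are given as a description, without a test. RNA was measured in cultured articular chondrocytes, the cells of joint cartilage, grown from the femoral head cartilage of 3-week-old C57BL/6 mice (C57BL6/J in the label of the mimic sample). There were 4 libraries, 1 per condition. The first was labelled wild type. The second, Cart-miR-23clus KO, carried floxed miR-23a/b clusters (flox/flox) and Col2a1-cre, a Cre recombinase under the promoter of the collagen II gene that removes the clusters in cartilage cells. The third, miR-26a KO, was miR-26a -/-, and the fourth was miR-26a -/- after transfection of a miR-26a mimic, a double-stranded RNA with the mature miRNA as its sense strand. The label calls the first culture wild type, while the study calls it both wild type and Control and describes Control mice as floxed, and whether the miR-26a KO culture received the negative control RNA is not in the labels. With 1 library per condition there is no replicate spread, and every interval below covers counting error only.

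Retinol travels in blood bound to RBP4 and can enter cells through STRA6. Alcohol and short-chain dehydrogenases oxidize it to retinaldehyde, and the ALDH1A enzymes oxidize retinaldehyde to retinoic acid. Inside the cell retinoic acid is carried by CRABP1 and CRABP2, binds the nuclear receptors RARα, RARβ and RARγ, which pair with RXR, and is removed by the CYP26 hydroxylases. In cartilage, signalling by retinoic acid receptors is known to restrain the chondrocyte program, RARγ is the main receptor of growing cartilage, and excess retinoic acid causes loss of proteoglycan from cartilage explants.

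Mature strands of the miRNAs deleted or added in these cultures are shown, other than miR-23b-3p and the opposite strand of each miRNA. A match to the seed of those shown, bases 2 to 8 in capitals, was sought in the members. The opposite strands were not searched. The sequences are those of RefSeq, 5′ to 3′. The miR-23a and miR-23b clusters each encode a miR-23, a miR-27 and a miR-24, and miR-27a and miR-27b share their seed.
mmu-miR-23a-3p: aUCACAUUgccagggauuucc
mmu-miR-27a-3p: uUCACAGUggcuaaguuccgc
mmu-miR-27b-3p: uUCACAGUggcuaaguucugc
mmu-miR-24-3p: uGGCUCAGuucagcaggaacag
mmu-miR-26a-5p: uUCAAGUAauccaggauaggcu
The sense strand of the transfected mimic is identical to the last of these over all 22 bases.

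In the longest annotated 3′ UTR of each member, the DNA letters that pair with a seed are AATGTGA for miR-23, ACTGTGA for miR-27, CTGAGCC for miR-24 and TACTTGA for miR-26a, read on the transcript strand. Only Rarg and Cyp26b1 held a match among the 9 members, and these sites are shown with the matched letters in capitals. They lie on the minus strand of GRCm38, at chr15:102235461-102235482, chr15:102235615-102235636 and chr6:84573588-84573609, in the order printed.
Rarg, miR-23 match: gagggggaagggagAATGTGAg
Rarg, miR-24 match: cccccgagggagggCTGAGCCc
Cyp26b1, miR-24 match: ccccatgggaccaaCTGAGCCg
In Rarg the miR-23 match begins at base 556 and the miR-24 match at base 402 of a 3′ UTR of 1086 bases, and in Cyp26b1 the match begins at base 672 of 2853. None of the 3 is followed by an A, the base that often flanks a conserved site. A match to miR-23 was found in 15.4% of 20642 genes with a 3′ UTR of at least 50 bases, to miR-27 in 16.3%, to miR-24 in 16.5% and to miR-26a in 9.84%. No 3′ UTR of the members held a match to miR-27 or miR-26a. Aldh1a1 with 499 bases and Rbp4 with 243 bases, whose ratios are described below, held none for any of the 4 seeds.

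Reads on genes of the TPM table numbered from 1328042 to 1498579 per library, and 4 of the 9 members had enough of them for a ratio. Aldh1a1, Rbp4, Rarg and Cyp26b1 had 381 to 1586 reads over the 4 libraries together. Crabp2 had 9 reads in all, Aldh1a3 had 1, and Crabp1, Rarb and Stra6 had 0 in every library. As a one-sided 95% limit, a count of 0 allows up to 3 reads, which in these libraries is 2.00 to 2.26 RPM (reads scaled only to the total of the library). The 2-sided exact interval used for the other levels reaches 2.46 to 2.78 RPM, so low expression of these 3 genes is not shown to be absent.

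**Figure D1:**
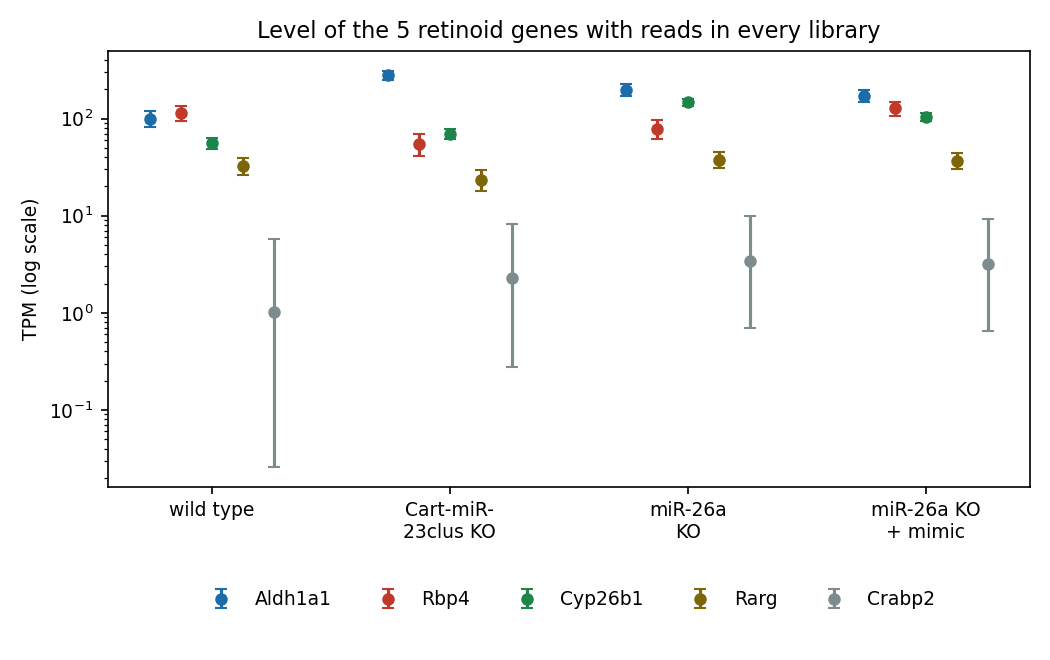
Level in TPM, on a log axis, of the 5 retinoid genes with reads in every library, for the 4 libraries. Points are deposited values of 1 library each and bars are exact Poisson 95% intervals on the reads. Aldh1a1 was highest in Cart-miR-23clus KO at 277.8 TPM, Cyp26b1 in miR-26a KO at 147.6 TPM, and Crabp2 stayed between 1.03 and 3.39 TPM with intervals that overlap.

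Aldh1a1 (chr19:20492715-20643465, plus strand, GRCm38) encodes retinaldehyde dehydrogenase 1, an enzyme that makes retinoic acid. Its level was 99.7 TPM from 113 reads for wild type, 277.8 TPM from 286 reads for Cart-miR-23clus KO, 196.7 TPM from 203 reads for miR-26a KO and 172 TPM from 190 reads with the mimic. Wild type was the lowest library and its 95% interval, 82.2 to 119.9 TPM, did not overlap that of any other. Relative to wild type, Cart-miR-23clus KO was at a TPM ratio of 2.79 with a 95% interval on the reads of 2.29 to 3.58. For miR-26a KO over wild type the ratio was 1.97 (1.56 to 2.51), and for the mimic library over miR-26a KO it was 0.87 (0.72 to 1.08). Aldh1a1 was therefore higher than wild type in each of the other 3 cultures, and with the mimic it differed from miR-26a KO by less than counting error. The study listed Aldh1a1 among genes selected on the ratio of mRNA and of protein in Cart-miR-23clus KO, so its ratio in that comparison is not independent evidence of a direction. Of the 4934 different stretches of 75 bases, the read length, in annotated Aldh1a1 transcripts, 50 also occur in its paralog Aldh1a7. Aldh1a7 itself had 10, 13, 8 and 12 reads in the 4 libraries as ordered above.

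Aldh1a3 (chr7:66390890-66427517, minus strand), which encodes retinaldehyde dehydrogenase 3, had 1 read in miR-26a KO, at 0.31 TPM, and none elsewhere. Aldh1a2, the enzyme that makes most retinoic acid in the embryo, was also at 0 in all 4 libraries. Among the enzymes that precede it, Dhrs3, which reduces retinaldehyde back to retinol, was at 64.3 TPM for wild type, 90.6 for Cart-miR-23clus KO, 100.3 for miR-26a KO and 92.5 with the mimic. Its ratio to wild type was 1.41 (1.17 to 1.79) for Cart-miR-23clus KO and 1.56 (1.27 to 1.93) in miR-26a KO, so it was higher in the same libraries as Aldh1a1 but below 2-fold. Rdh10, the main retinol dehydrogenase of the embryo, had 14 to 21 reads per library.

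Cyp26b1 (chr6:84571414-84593908, minus strand) encodes the retinoic acid hydroxylase that clears retinoic acid from developing skeletal tissue. It had 250 reads for wild type, 282 for Cart-miR-23clus KO, 602 for miR-26a KO and 452 with the mimic, at 55.8, 69.3, 147.6 and 103.5 TPM. It had the most reads of any member over the 4 libraries, 1586, and the intervals of miR-26a KO (136 to 159.9 TPM) and of the mimic library (94.2 to 113.5 TPM) overlapped neither each other nor the other 2 libraries. The ratio of miR-26a KO to wild type was 2.65 (2.28 to 3.08). Over miR-26a KO the mimic library was at 0.70 (0.62 to 0.80), which left it at 1.86 (1.60 to 2.19) over wild type. Cart-miR-23clus KO differed less from wild type, with a ratio of 1.24 (1.07 to 1.52). Cyp26a1 and Cyp26c1, which encode the other two CYP26 enzymes, were at 0 in all 4 libraries.

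Rbp4 (chr19:38116629-38125281, minus strand) encodes the retinol binding protein of serum, which liver and fat secrete. Its levels were 112.9 TPM from 137 reads for wild type, 54.5 TPM from 60 reads for Cart-miR-23clus KO, 77.9 TPM from 86 reads for miR-26a KO and 126.9 TPM from 150 reads with the mimic. The interval of Cart-miR-23clus KO, 41.6 to 70.1 TPM, lay below those of wild type and the mimic library and overlapped that of miR-26a KO. The ratio to wild type was 0.48 (0.36 to 0.67) in Cart-miR-23clus KO and 0.69 (0.52 to 0.91) in miR-26a KO. The mimic library was at 1.63 (1.25 to 2.16) over miR-26a KO and at 1.12 (0.89 to 1.44) over wild type, an interval that includes 1. Stra6 (chr9:58063788-58153996, plus strand), the membrane receptor for RBP4, and Ttr, the serum partner of RBP4, had no reads.

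Crabp2 (chr3:87948666-87953376, plus strand), which carries retinoic acid to the nucleus, had 1 read for wild type, 2 for Cart-miR-23clus KO, 3 for miR-26a KO and 3 with the mimic. Its 95% intervals in TPM overlapped between all 4 libraries. Crabp1 (chr9:54764748-54773110, plus strand), the other carrier, had none. Fabp5, a fatty acid binding protein that can also carry retinoic acid, was read more often, with 61, 52, 55 and 79 reads in the 4 libraries as ordered above, or 55.5 to 78.6 TPM.

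Rarg (chr15:102234938-102257517, minus strand) encodes RARγ. It had 100 reads for wild type, 65 for Cart-miR-23clus KO, 106 for miR-26a KO and 110 with the mimic, at 32.4, 23.2, 37.7 and 36.6 TPM. The lowest value was that of Cart-miR-23clus KO, with a ratio to wild type of 0.72 (0.53 to 1.01). Rarg is also the member whose 3′ UTR holds the matches to miR-23 and miR-24 printed above. Over wild type miR-26a KO was at 1.16 (0.88 to 1.55), and the mimic library over miR-26a KO at 0.97 (0.74 to 1.29). All 3 intervals include 1, and a change of the size seen for Rbp4 in Cart-miR-23clus KO (0.48) lies outside each of them. Set against the miR-26a KO library, Cart-miR-23clus KO was at 0.61 (0.45 to 0.87).

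Rarb (chr14:16430839-16819156, minus strand) encodes RARβ, whose gene is a textbook target of retinoic acid through a response element in its promoter. It had no read in any library. Its annotated end overlaps Top2b on the opposite strand, and that gene had 286 to 434 reads per library. Rara, which encodes RARα, had 14, 17, 10 and 9 reads in the 4 libraries as ordered above, at 3.7 to 7.5 TPM, below the level of Rarg in every library. Rarg was therefore the retinoic acid receptor gene with the highest level in each of the 4 cultures. The partner gene Rxra was at 115.7 to 135.9 TPM, with ratios of 1.06 (0.79 to 1.49), 0.95 (0.69 to 1.32) and 0.95 (0.68 to 1.34) in the order of comparisons above.

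Promoter windows of 300 bases around annotated starts, from RefSeq on GRCm38.p6, were found for 7 of the 9 members, not for Aldh1a3 or Crabp2. They were searched on both strands for direct repeats of the retinoic acid receptor half-site with a spacing of 1, 2 or 5 bases (DR1, DR2 and DR5). The motifs share the half-site and differ in the spacing. Among the members the only match was a DR5 in Rarb, on the strand of the gene, beginning 53 bases before the start of transcription. The window, chr14:16575427-16575726 on the minus strand, is shown because it belongs to the receptor gene without reads, with the matched letters in capitals.
Rarb promoter: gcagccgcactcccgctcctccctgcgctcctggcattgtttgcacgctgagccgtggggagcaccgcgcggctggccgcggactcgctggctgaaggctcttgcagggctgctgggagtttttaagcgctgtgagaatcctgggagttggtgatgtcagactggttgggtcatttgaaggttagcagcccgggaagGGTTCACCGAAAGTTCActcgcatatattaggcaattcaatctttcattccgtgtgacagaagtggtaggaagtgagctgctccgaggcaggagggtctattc
A DR5 was found in 0.0974% of 32851 windows, a DR1 in 0.222% and a DR2 in 0.268%. The windows of Aldh1a1, Rbp4, Crabp1, Rarg, Cyp26b1 and Stra6 did not hold these letters.

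**Figure D2:**
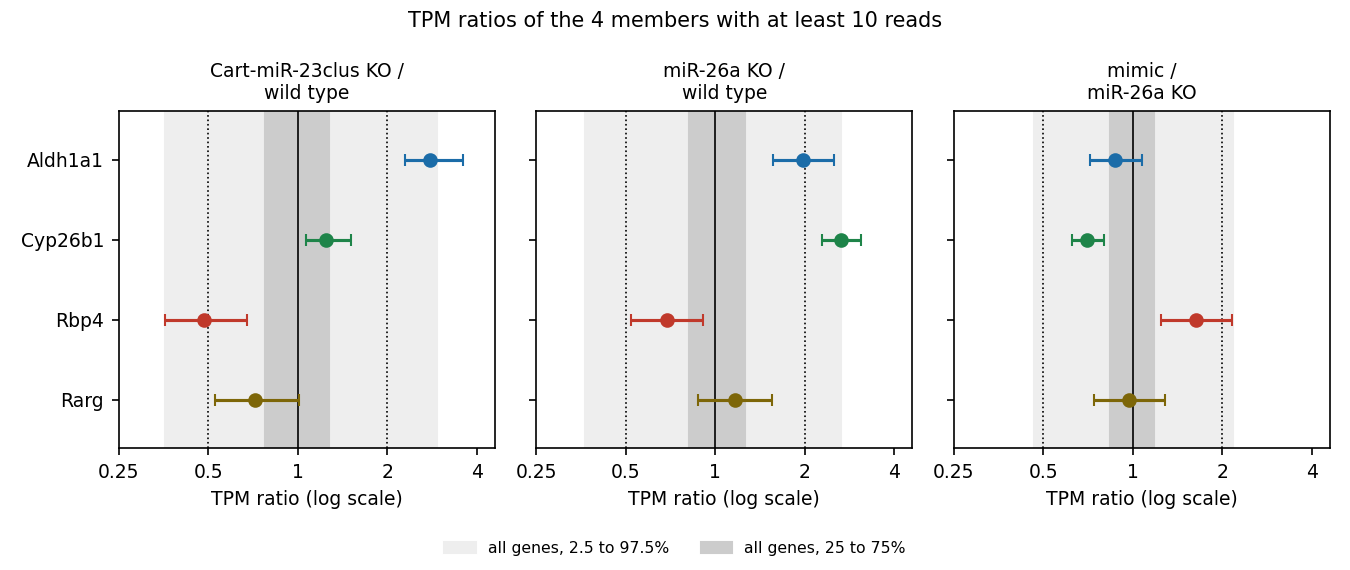
TPM ratios on a log axis for the 4 members with at least 10 reads in the 2 libraries together, in the 3 comparisons. Bars are exact 95% intervals on the reads, and dotted lines mark 0.5 and 2. Shaded bands hold the central 50% and 95% of the ratios of all genes with at least 10 reads together and reads in both libraries. Aldh1a1 lies past 2 in Cart-miR-23clus KO over wild type, Cyp26b1 in miR-26a KO over wild type, and no member in the mimic library over miR-26a KO.

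A gene was counted as past 2-fold where its TPM ratio was above 2 or below 0.5 and the 95% interval excluded 1, provided the 2 libraries together held at least 10 reads. In Cart-miR-23clus KO over wild type, 4 members had enough reads and Aldh1a1 was higher, beside 4.28% of 11111 genes. Rbp4 was lower in that comparison, beside 3.6% of the genes. In miR-26a KO over wild type Cyp26b1 was higher, beside 3.4% of 11107 genes, and no member was lower, beside 2.73%. In the mimic library over miR-26a KO no member was past 2-fold in either direction, beside 1.46% of 11016 genes higher and 1.06% lower. These comparisons used the same values that chose the members, so the counts of members are not read against the shares of all genes. Rbp4 at 0.48 in Cart-miR-23clus KO lay just inside the threshold and Aldh1a1 at 1.97 in miR-26a KO just outside. Both ratios to wild type rest on the same wild-type library, and miR-26a KO enters the last 2 comparisons.

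Places were taken among genes with at least 10 reads in the 2 libraries together and reads in both. The members were chosen with these ratios known, so their places are a description. In Cart-miR-23clus KO over wild type, 321 of 11093 genes had a larger ratio than Aldh1a1, and 634 had a smaller one than Rbp4. In miR-26a KO over wild type 280 of 11103 genes were above Cyp26b1, and 628 were above Aldh1a1. In the mimic library over miR-26a KO 771 of 11012 genes were above Rbp4 and 1360 were below Cyp26b1. Set side by side, Cyp26b1 was at 2.65 in miR-26a KO over wild type and 0.70 in the mimic library over miR-26a KO, and Rbp4 was at 0.69 and 1.63. Aldh1a1 was at 1.97 and 0.87, and its second interval includes 1. Because both ratios hold the miR-26a KO library, once below and once above the line, a deviation of that library alone moves them in opposite directions.

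The order of the members differed between the libraries. By TPM, Rbp4 and Aldh1a1 led in wild type with intervals that overlap, followed by Cyp26b1 and Rarg. In Cart-miR-23clus KO Aldh1a1 led, Cyp26b1 and Rbp4 followed with intervals that overlap, and Rarg was lower. In miR-26a KO the order was Aldh1a1, Cyp26b1, Rbp4 and Rarg, each interval apart from the next. In the mimic library the order was Aldh1a1, Rbp4, Cyp26b1 and Rarg, and the intervals of neighbours among the first 3 overlapped. Division by gene length sets part of this order, since reads come from the 3′ ends of mRNAs: in RPM Cyp26b1 led in wild type with 166.8, before Rbp4 with 91.4 and Aldh1a1 with 75.4. In miR-26a KO Cyp26b1 led in RPM with 441.7, before Aldh1a1 with 149, and Rarg with 77.8 was above Rbp4 with 63.1. With the mimic Cyp26b1 led with 311.9, before Aldh1a1 with 131.1. In Cart-miR-23clus KO Aldh1a1 with 215.4 and Cyp26b1 with 212.3 were close, and Rarg with 48.9 was above Rbp4 with 45.2.

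The ratio of reads of 2 members within a library does not depend on how libraries are scaled. For each read of Cyp26b1, the enzyme that removes retinoic acid, there were 0.45 reads (95% interval 0.36 to 0.57) of Aldh1a1, the enzyme that makes it, in wild type. With Cart-miR-23clus KO there were 1.01 (0.86 to 1.20), in miR-26a KO 0.34 (0.29 to 0.40) and in the mimic library 0.42 (0.35 to 0.50). The value of Cart-miR-23clus KO was the highest, and its interval was apart from the other 3, which overlap one another. Reads of Rbp4 per read of Aldh1a1 were 1.21 (0.94 to 1.57) for wild type, 0.21 (0.16 to 0.28) for Cart-miR-23clus KO, 0.42 (0.33 to 0.55) for miR-26a KO and 0.79 (0.63 to 0.98) with the mimic. Reads of Rarg per read of Cyp26b1 were 0.40 (0.31 to 0.51) in wild type and between 0.18 and 0.24 in the other 3 libraries. All of these values reuse the reads of members that were chosen with their TPM ratios known. They are therefore a description and not independent evidence of a shift between the libraries.

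**Figure D3:**
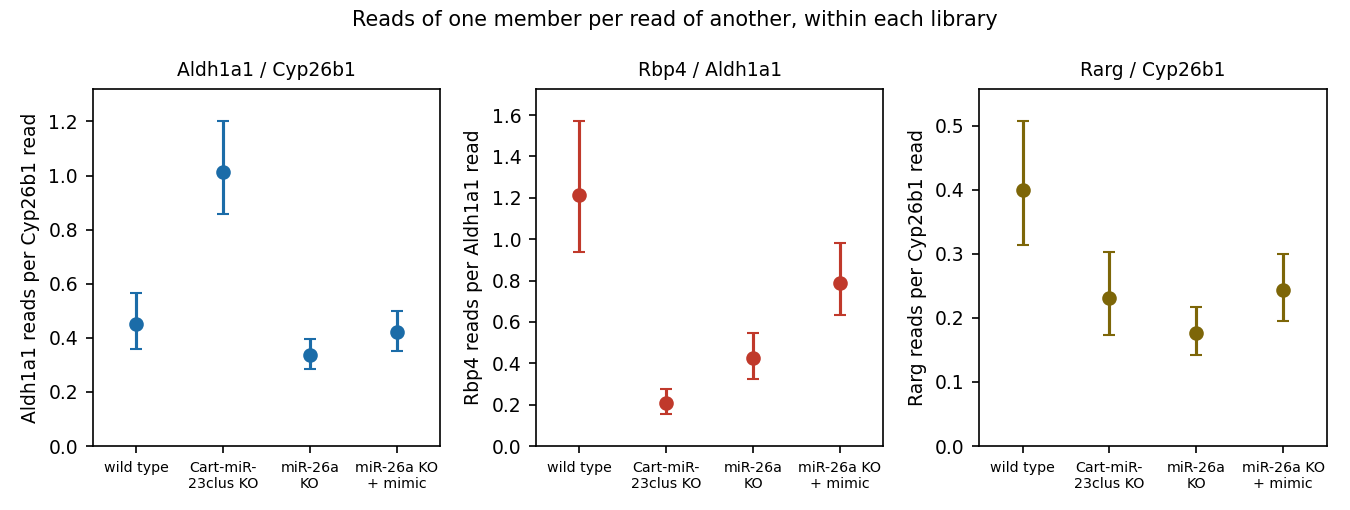
Reads of one member for each read of another in the 4 libraries, on linear axes from 0, with exact 95% intervals on the reads. Aldh1a1 over Cyp26b1 was 1.01 in Cart-miR-23clus KO and 0.34 to 0.45 in the other libraries, Rbp4 over Aldh1a1 was lowest in Cart-miR-23clus KO at 0.21, and Rarg over Cyp26b1 was highest in wild type at 0.40.

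Beside the members, 75 other genes of retinoid biology were listed in 4 groups: metabolism, transport and storage, receptors and their partners, and genes known to respond to retinoic acid. All 75 are in the files and 60 had a read in some library. In Cart-miR-23clus KO over wild type, 46 had at least 10 reads and 5 were higher past 2-fold, namely Adh1, Lpl, Pparg, Ep300 and Rarres2, and 0 were lower, beside 4.28% and 3.6% of all genes. In miR-26a KO over wild type 45 had enough reads, 1 was higher, Tgm2, and 2 were lower, Lpl and Mgp, beside 3.4% and 2.73% of all genes. In the mimic library over miR-26a KO 2 of 46 were higher, Adh1 and Ncoa2, and 0 were lower, beside 1.46% and 1.06% of all genes. The list was drawn up with earlier results of these data known, so its counts are not read against the shares of all genes. Lpl and Pparg are also among the adipocyte markers given below. Over the 52 genes that averaged at least 1 TPM the log2 ratio, after adding 0.5 TPM, had a median of 0.02, 0.03 and -0.03 in the 3 comparisons, beside 0.00, 0.03 and -0.01 over all 13191 genes.

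In the metabolism group, 12 of 15 genes were above 0 on the log2 scale in Cart-miR-23clus KO over wild type, with a median of 0.22, and 10 of 15 in miR-26a KO over wild type, with a median of 0.26. In the mimic library over miR-26a KO 6 of 15 were above 0, with a median of -0.08. Of all 13191 genes, 49.6%, 52.4% and 47.4% were above 0 in these comparisons. The 3 with the highest mean TPM, Dhrs7, Dhrs3 and Dhrs4, all encode short-chain dehydrogenases. Dhrs7 was at 78.3 TPM in wild type against 104.7 for Cart-miR-23clus KO, a ratio of 1.34 (1.05 to 1.79), and Dhrs4 at 65.3 and 83.3 TPM, a ratio of 1.28 (0.98 to 1.74). Adh1, an alcohol dehydrogenase that can oxidize retinol, was the gene of this group past 2-fold, with 5 reads for wild type, 18 for Cart-miR-23clus KO, 1 for miR-26a KO and 9 with the mimic. Its ratio was 3.96 (1.45 to 14) in Cart-miR-23clus KO over wild type, and 8.41 (1.17 to 371) in the mimic library over miR-26a KO, where the lower count was a single read.

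In the transport and storage group, all 7 genes that averaged at least 1 TPM were above 0 on the log2 scale in the mimic library over miR-26a KO, with a median of 0.42, while 2 of 7 were above 0 in each comparison with wild type. With no filter on TPM the share above 0 with the mimic was 77.8%. In that comparison 9 of 9 macrophage markers and 8 of 9 osteoblast markers were also higher, and their part in it was not tested. Lpl, the lipase of circulating fat, which also frees retinol from its esters, was at 78.6 TPM for wild type, 158.8 for Cart-miR-23clus KO, 28.6 for miR-26a KO and 41.3 with the mimic. Its ratio to wild type was 2.02 (1.81 to 2.37) in Cart-miR-23clus KO and 0.36 (0.29 to 0.45) in miR-26a KO, in opposite directions. Like Aldh1a1, Lpl is on the list that the study selected on the ratio in Cart-miR-23clus KO, so that value is not independent evidence of its direction. Scarb1, a receptor for lipoproteins that takes up carotenoids, had 97, 69, 63 and 97 reads in the 4 libraries as ordered above, with a ratio of 1.44 (1.04 to 2.02) in the last over miR-26a KO. Fabp5 was described above.

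**Figure D4:**
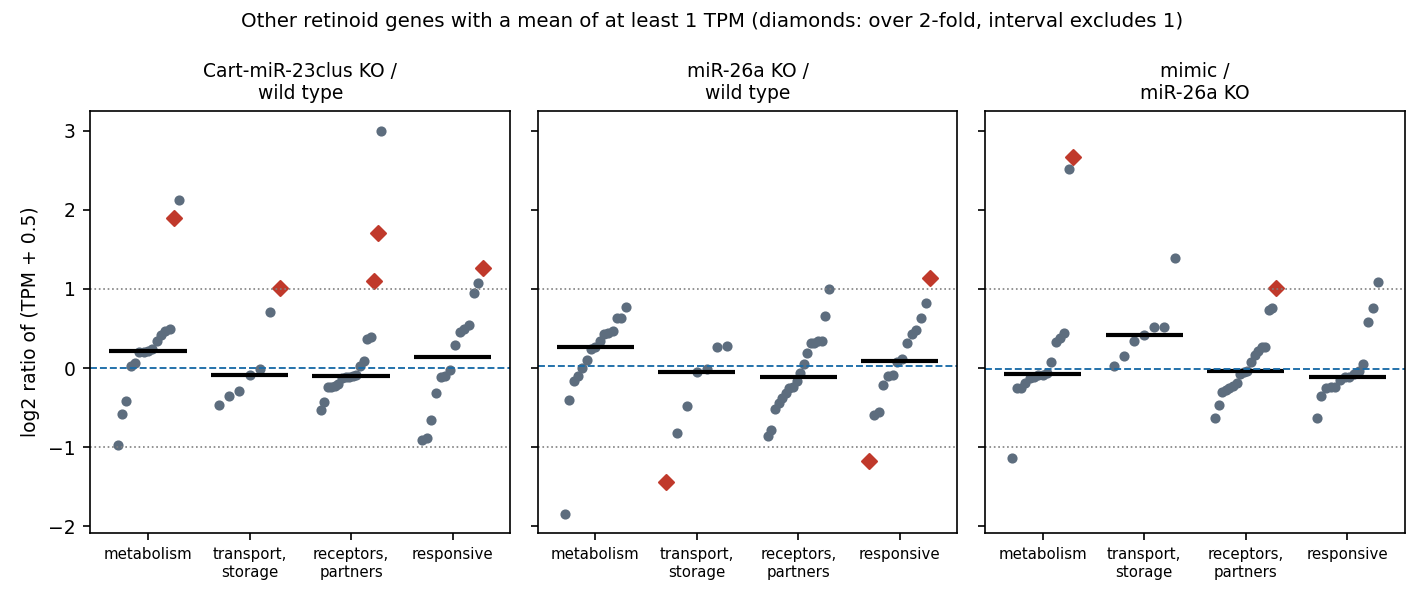
Log2 ratios of TPM, with 0.5 TPM added, for the other retinoid genes that averaged at least 1 TPM, by group and comparison. Diamonds are genes past 2-fold with an interval that excludes 1, points past 2-fold without a diamond have too few reads or an interval that includes 1, black lines are group medians and the dashed line is the median of all genes. Group medians lie between -0.11 and 0.26 except for transport and storage in the mimic library over miR-26a KO, at 0.42.

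Among receptors and partners, 7 of 18 genes were above 0 on the log2 scale in Cart-miR-23clus KO over wild type, 8 in miR-26a KO over wild type and 8 in the mimic library over miR-26a KO. Pparg, the fat cell receptor that also pairs with RXR, had 38 reads for wild type, 115 for Cart-miR-23clus KO, 44 for miR-26a KO and 38 with the mimic. Its ratio in Cart-miR-23clus KO over wild type was 3.33 (2.35 to 5.07), and those of the other comparisons, 1.27 (0.81 to 2.02) and 0.81 (0.51 to 1.28), have intervals that include 1. Ep300, a histone acetyltransferase that works with these receptors, was at 2.20 (1.38 to 3.77) in that comparison, from 52 against 26 reads. Ncoa2, a coactivator, was at 2.38 (1.16 to 5.33) in the mimic library over miR-26a KO, from 28 against 11 reads. By mean TPM Rxra was the highest gene of this group, followed by Kat2b, an acetyltransferase with 18 to 34 reads per library. Tbl1x, a subunit of the corepressor complex, came next at 31.3 to 35.1 TPM. Division by gene length sets part of this order. Other genes of the group had more reads than Rxra, which had 73 to 84 per library, among them Tbl1x with 156 to 192.

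Of the genes that respond to retinoic acid, 14 had a mean of at least 1 TPM, and 7, 8 and 4 of them were above 0 on the log2 scale in the 3 comparisons, with medians of 0.13, 0.09 and -0.11. Tgm2, a transglutaminase induced by retinoic acid in many cells, had 43 reads for wild type, 77 for Cart-miR-23clus KO, 88 for miR-26a KO and 85 with the mimic. Its ratio to wild type was 2.25 (1.55 to 3.32) in miR-26a KO and 1.97 (1.37 to 3.01) in Cart-miR-23clus KO. Mgp, an inhibitor of cartilage calcification, was lower in miR-26a KO at 0.44 (0.42 to 0.46) and in Cart-miR-23clus KO at 0.53 (0.52 to 0.57) of wild type, from 3232 and 3874 reads against 8035. Rarres2, the chemerin gene, was at 2.67 (1.08 to 7.82) in Cart-miR-23clus KO, from 17 against 7 reads. Meis2, a homeobox gene, was at 1.37 (1.09 to 1.82) in Cart-miR-23clus KO and 0.93 (0.71 to 1.24) in miR-26a KO over wild type. Dhrs3, described above, is also in this group and ranked by mean TPM after Mgp and before Meis2.

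The cultures differed in markers of cell types, and RNA of a whole culture cannot tell fewer cells of a type from less RNA per cell. All 9 chondrocyte markers had reads in every library, with a summed level of 14015 TPM in wild type and 10012 to 10455 TPM in the others, and 7 of 9 were below their wild-type level in Cart-miR-23clus KO and 8 of 9 in miR-26a KO. The summed level of 9 osteoblast markers was 12230 TPM for wild type, 2293 for Cart-miR-23clus KO, 6180 for miR-26a KO and 6917 with the mimic, with 8 of 9 lower than wild type in each KO. That of 9 adipocyte markers, of which Lpl and Pparg are 2 and Cidec and Lep were at 0 in all libraries, was 491.9 TPM in Cart-miR-23clus KO and 129.8 to 175.1 TPM in the others, with 6 of 9 above their wild-type level in Cart-miR-23clus KO. Macrophage markers summed to 930.8 TPM in wild type and 1135 with Cart-miR-23clus KO, to 361.4 TPM in miR-26a KO, with 9 of 9 below their wild-type level, and to 610.5 TPM with the mimic. Markers of fibroblasts and synovium, with Pi16 at 0, summed to 154.8 TPM for wild type, 261.1 for Cart-miR-23clus KO, 402.8 for miR-26a KO and 430.6 with the mimic. The single markers did not all follow these sums. For miR-26a KO 5 were above and 3 below their wild-type level, against 6 above and 2 below for Cart-miR-23clus KO. With the mimic 2 were above and 6 below their level in miR-26a KO, although the sum was higher. Endothelial markers, with Cdh5 and Tek at 0, summed to 15.7 to 31.9 TPM, and those of smooth muscle and pericytes, with Myh11, Rgs5 and Mcam at 0, to 1.72 to 10.2 TPM. The part of any of these in the ratios of the members was not tested.

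For each member with at least 50 reads in every library, the 3 genes with the closest profile over the 4 libraries were sought among 6545 genes that had 20 reads or more in each, by the root mean square difference of log2(TPM + 0.5) centred on the gene's mean. For Aldh1a1 these were C1ra, at 0.06, Fos, at 0.08, and Ier2, at 0.08. C1ra encodes a protease of complement and has a close paralog in the mouse, and Fos and Ier2 are immediate early genes. C1ra had 105 reads for wild type, 248 for Cart-miR-23clus KO, 194 for miR-26a KO and 180 with the mimic, the same order of libraries as Aldh1a1.

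Pla2g5 and Cdr2, each at 0.09, were among the 3 closest to Rbp4, and for Rarg the closest were Zfp385b, Ppt2 and Phactr4, at 0.02 to 0.03. For Cyp26b1 the nearest were less close, Sulf1 at 0.12, a gene without a symbol in the files (ENSMUSG00000118365) at 0.12 and Hectd3 at 0.13. Sulf1, which removes sulfate groups from heparan sulfate, had 44, 51, 90 and 78 reads in the 4 libraries as ordered above. A likeness over 4 libraries from so many candidates is a description of these libraries, and counts were often low, as for Ppt2 with 22 to 37 reads per library.

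**Figure D5:**
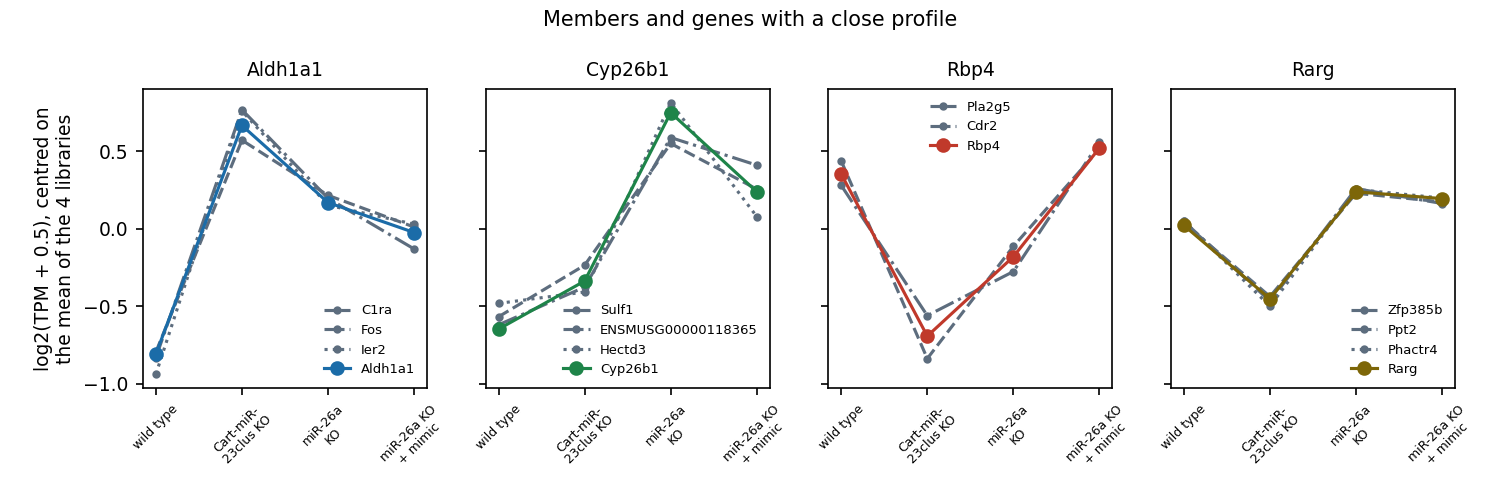
Profiles of the 4 members with at least 50 reads in every library (colour) and of genes among the 3 closest to each (grey, 2 for Rbp4 and 3 for the others), as log2(TPM + 0.5) centred on the mean of the 4 libraries. The lines join separate conditions only to guide the eye. Aldh1a1 and its neighbours peak in Cart-miR-23clus KO, Cyp26b1 and its neighbours in miR-26a KO, and Rbp4 and Rarg with theirs are lowest in Cart-miR-23clus KO.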

How the data were processed

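RNA of cultured mouse chondrocytes was sequenced in 4 libraries of mRNA 3′ ends (QuantSeq FWD, single-end, 75 bases). The authors mapped the reads to mm10 (GRCm38.p6 in the submitters' processing notes). The aligner, the counter, the annotation and whether strand was used are not given in the sources used here. The deposited TPM values were made by the authors from reads per gene divided by one length per gene, which suits 3′ reads poorly between genes but cancels in the ratio of a gene between libraries. A table of estimated counts, deposited for 3 libraries and 55450 genes, holds whole numbers, so rounding changed nothing. For the mimic library the reads were recovered from the steps of its TPM: 14429 of 14429 values lay within 0.02 of a whole number, 588 genes without reads elsewhere were not recovered, and 1449246 reads were found in all.

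Groups came from the sample labels. The members and lists were chosen with earlier results of these data known. Ratios are of deposited TPM, and their exact Clopper-Pearson 95% intervals use the reads with the totals of the libraries as offset, so that an interval refers to RPM (reads scaled to the library total), whose ratios are 1.001 to 1.025 times those of TPM. Intervals of levels are exact Poisson intervals. With 1 library per condition no test was made. The genes named are the 9 members, the genes of the retinoid list past 2-fold in a comparison, the 3 of each of its groups with the highest mean TPM, and the 3 closest to each member in profile. Not every gene under this rule is reported here. Aldh1a2, Aldh1a7, Cyp26a1, Cyp26c1, Rara, Rdh10, Ttr and Top2b were named in addition, after their values were seen, as relatives or neighbours of members. The intervals of ratios and the 2-fold calls were tested on simulated Poisson counts, which hold no variation between cultures or animals. The other steps were not tested in this way. Alternatives were RPM, edgeR's TMM factors and DESeq2's size factors, other comparison libraries, other filters on reads and TPM, pseudocounts of 0.1 and 1 TPM, and an interval of 99%. Gene positions came from GENCODE and sequences from RefSeq and from GENCODE transcripts, all on GRCm38. The work used R 4.3.3 with edgeR 4.0.16 and DESeq2 1.42.0, and Python 3.11.15 with scipy 1.17.1, pandas 2.3.3, numpy 2.4.6 and matplotlib 3.10.9.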

Additional observations from a re-analysis of the deposited data

How the results depend on the processing

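No paired analysis was possible because there is only 1 library of a kind. All 36 ratios of the 4 members under RPM, TMM factors and DESeq2 size factors stayed within the 95% interval of the TPM ratio, and the counts of members past 2-fold were the same under every filter, interval and offset tried. The comparison library mattered more. Set against the miR-26a KO library, Cart-miR-23clus KO was at 1.41 for Aldh1a1, 0.70 for Rbp4 and 0.47 for Cyp26b1, the last in the opposite direction. Set against wild type, the mimic library was at 1.73 for Aldh1a1, 1.12 for Rbp4 and 1.86 for Cyp26b1, and the ratios of Aldh1a1, Cyp26b1 and Rarg, the last at 1.13, then lay on the other side of 1. With 20 reads required in each library, which all 4 members had, 143 genes were higher and 102 lower of 6935 in Cart-miR-23clus KO over wild type (2.06% and 1.47%). In miR-26a KO over wild type they were 112 and 57 of 7028 (1.59% and 0.811%), and in the mimic library over miR-26a KO 14 and 13 of 7110 (0.197% and 0.183%). The cause of the smaller shares was not tested. With the stricter 99% interval, 246 were lower in Cart-miR-23clus KO, 164 lower in miR-26a KO, and 61 higher and 49 lower in the mimic library. The share of the retinoid list above 0 on the log2 scale was between 46.7% and 53.3% in the 3 comparisons under the pseudocounts and filters tried. With 1 library per condition, neither variation between animals nor between cultures can be estimated.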
